A study of Homo sapiens with 8 samples.

Results

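The MNK kinases and the eIF4E cap-binding axis were followed through 9 genes, chosen by symbol from the 60606 genes of the count table: the kinase genes MKNK1 and MKNK2, the cap-binding protein genes EIF4E and EIF4E2, the 4E-binding protein genes EIF4EBP1 and EIF4EBP2, and the scaffold genes EIF4G1, EIF4G2 and EIF4G3. All 9 were found and all 9 passed the filter on low counts, which left 17184 genes for testing. The set was proposed with the results of this comparison already known, so fold changes and adjusted p-values of the 9 genes are given as a description of these libraries. The libraries came from HEK293, an established human line of embryonic kidney origin. In 4 of them the cells had received a tRNA-Asp-GTC 3' tDR mimic, that is, a synthetic copy of a small RNA cut from the 3' part of this tRNA, and in the other 4 a scrambled control mimic. Both mimics were delivered at 50 nM with Lipofectamine RNAiMax, and all cells were collected 48 hours later. Every library is thus from transfected cells of a single line, and no untransfected cells are in the comparison.

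Most mRNAs are recruited to the ribosome through the methylated cap at their 5' end. The cap is bound by eIF4E, which docks on the scaffold eIF4G together with the helicase eIF4A to form the complex eIF4F, and eIF4G in turn contacts eIF3 on the small ribosomal subunit and the poly(A)-binding protein. Unphosphorylated 4E-binding proteins compete with eIF4G for eIF4E and are released from it when the kinase complex mTORC1 phosphorylates them. The MNK kinases, which are activated by the MAP kinases ERK and p38, dock on eIF4G and phosphorylate eIF4E. EIF4E2 encodes a relative of eIF4E known for translational repression and for cap binding in hypoxia, and EIF4G2 encodes a relative of eIF4G that lacks the eIF4E-binding part. These are statements about proteins, while the measurements here are of RNA.

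The 2 MNK genes differed in their counts, and their promoters are shown because the sequence upstream of each is what the RefSeq table (GRCh38.p14) offers for setting them side by side. Each stretch is the longest run within the 250 bases before the start site that lies outside annotated exons, printed 5' to 3' on the strand of the gene. Both genes are on the minus strand, MKNK2 with chr19:2051245-2051494 and MKNK1 with chr1:46604295-46604518. The MKNK1 stretch lies within the GENCODE span of that gene, which has starts further upstream. Capitals mark TATAAA (searched on the printed strand) and CACGTG (the E-box, which reads the same on both strands).
MKNK2: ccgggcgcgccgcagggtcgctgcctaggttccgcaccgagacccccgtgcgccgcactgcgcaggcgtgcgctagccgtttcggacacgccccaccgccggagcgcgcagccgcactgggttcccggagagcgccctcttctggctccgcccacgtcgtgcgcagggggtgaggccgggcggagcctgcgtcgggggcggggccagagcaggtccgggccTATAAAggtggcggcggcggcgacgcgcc
MKNK1: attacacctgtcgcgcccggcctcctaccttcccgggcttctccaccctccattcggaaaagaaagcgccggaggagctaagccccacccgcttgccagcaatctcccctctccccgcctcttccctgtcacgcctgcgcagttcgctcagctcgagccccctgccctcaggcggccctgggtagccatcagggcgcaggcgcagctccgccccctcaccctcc
MKNK2 has 1 TATAAA that begins 29 bases before the start site, and neither MNK stretch holds CACGTG. Of these motifs, TATAAA occurred in 6.8% and CACGTG in 6.34% of the 35116 promoter windows in the table. GGGCGG or its reverse complement, the GC box, was found 3 times before MKNK2 and once before MKNK1. Of all windows 42.6% hold at least 1 and 24.3% hold 2 or more. The windows before EIF4E and EIF4G1 each hold 2 copies of CACGTG, which 0.535% of all windows do. Those of EIF4E begin 225 and 72 bases before its start site, and those of EIF4G1 144 and 67 bases before its start. No motif overlapped another at the positions named. The part before EIF4G1 that lies outside annotated exons, chr3:184314356-184314494 on the plus strand, carries the first of its copies.
EIF4G1: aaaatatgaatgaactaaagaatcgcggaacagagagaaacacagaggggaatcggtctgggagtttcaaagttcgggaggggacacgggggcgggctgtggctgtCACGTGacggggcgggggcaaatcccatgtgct
The motifs were chosen after the sequences were seen. A match describes the letters and was not tested for any factor.

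MKNK2 was the member that rose, and EIF4E, EIF4E2, EIF4G1 and EIF4G2 fell. MKNK2 was 1.49-fold higher in the tDR libraries, and each of the 4 lower genes was 12.7% to 13.8% lower. MKNK1, EIF4EBP1, EIF4EBP2 and EIF4G3 did not pass the test, with log2 fold changes between -0.12 and -0.06. Thus 5 of the 9 members passed (1 higher, 4 lower; p under 0.05 after Benjamini-Hochberg adjustment, quasi-likelihood test of edgeR), where 24.3% of all tested genes passed, 12.8% higher and 11.4% lower. The members are well counted, and genes that are well counted pass more often. Among the 7102 tested genes with mean levels between those of the lowest and highest member (30.6 and 1701 CPM), 30.6% passed, 6.29% higher and 24.3% lower. Levels are in CPM, counts scaled to a common library size with TMM factors. The median log2 fold change was -0.12 over the 9 members, 0.02 over all tested genes and -0.07 over those at the members' levels. In 5 members, MKNK2, EIF4E2, EIF4G1, EIF4G2 and EIF4G3, the groups did not overlap, as in 22.7% of all tested genes and 28.2% of those at the members' levels. Scaled to library size alone, 3295 genes were higher and 907 lower over all genes, instead of 2206 and 1962, and 3 members passed, MKNK2, EIF4G1 and EIF4G2.

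**Figure D1:**
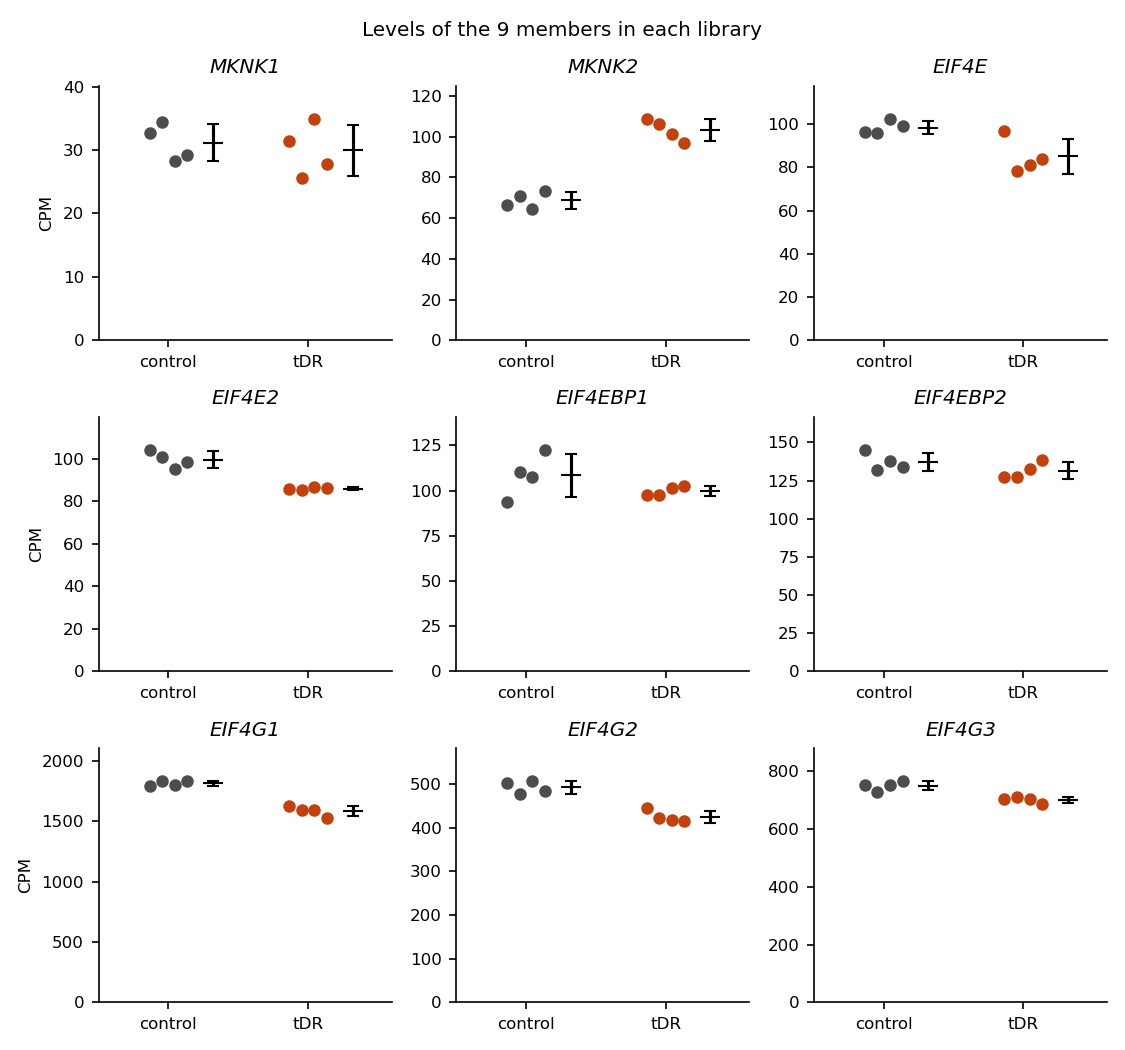
Level of each member in CPM (linear axis from 0) in the 4 control and 4 tDR libraries, 1 point per library, in replicate order, with the group mean and SD beside the points. MKNK2 lies at 64.5 to 73.5 CPM in controls and at 96.8 to 109 CPM with the tDR, while in EIF4E tDR replicate 1 lies among the controls.

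Total counts ran from 5848305 to 10557740 per library, and the first principal component (46.1% of the variance) separated the groups. Separate cultures are not stated for them, and p-values therefore reflect only how these 8 libraries vary, possibly for technical reasons. Bulk RNA cannot tell fewer cells of a type from less RNA per cell. Of 6 genes known from HEK293 cells all were counted, and their summed level was 737 to 795 CPM in controls and 640 to 690 CPM with the tDR. They did not move together: PAX2 rose (15.9 to 21.6 CPM), NEFL, NEFM and CDH2 fell, and LHX1 and VIM did not pass. Of 10 genes that mark other cell types CD68 and HBA1 were listed at 0, and the sum of the 10 was 6.13 to 8.20 CPM in controls and 14.6 to 15.3 CPM with the tDR. Only 3 of the 10 were tested. PECAM1 (1.385 to 4.27 CPM) and CDH5 (0.889 to 2.08 CPM) rose, and PTPRC did not pass. The part of this shift in the results was not tested. The density of counts over 381 olfactory receptor genes serves as an estimate of background. Per kb of gene span, introns included, it was 0.091 to 0.151 in control and 0.137 to 0.231 in tDR libraries. The background of a member was this density times its own span. By that estimate background made up at most 5.75% of the counts of any member in any library (MKNK1, tDR replicate 2), and at most 0.358% of those of MKNK2.

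MKNK2 (ENSG00000099875.14; GENCODE 29 on GRCh38, chromosome 19, 2037465 to 2051244, minus strand) encodes MNK2, the MNK kinase with the higher basal activity. Its level was 66.2, 71.1, 64.5 and 73.5 CPM in control replicates 1, 2, 3 and 4. In tDR replicates 1, 2, 3 and 4 it was 109, 106, 101 and 96.8 CPM. Every tDR library stood above every control library, and the gap between the groups was wider than the spread within either. The group means were 68.8 ± 4.16 and 103 ± 5.28 CPM (SD, n = 4), on raw counts of 406 to 923 per library. This is a log2 fold change of 0.58 ± 0.065 (SE; adjusted p by edgeR = 8.22e-10). An increase that passed and was at least this large occurred in 8.4% of all tested genes, and in 26 of the 7102 genes at the members' levels (0.366%). The increase passed under all 16 alternatives of the fit that were run, at log2 fold changes from 0.47 to 0.66.

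MKNK1 (ENSG00000079277.20; chromosome 1, 46557408 to 46616843, minus strand) encodes MNK1, the MNK kinase whose activity depends most on signalling by ERK and p38. It stood at 32.7, 34.5, 28.3 and 29.2 CPM in controls and at 31.5, 25.6, 34.9 and 27.8 CPM with the tDR. The groups overlapped, and tDR replicate 3 was the highest of the 8 libraries. For MKNK1 the log2 fold change was -0.06 ± 0.10 (SE; adjusted p by edgeR = 0.70), with an approximate 95% interval of -0.27 to 0.14. MKNK1 is the least counted member, with 178 to 299 counts per library, and a change the size of that in EIF4E lies within its interval. With scaling to library size alone its sign turned (0.02). MOB3C, whose exons overlap those of MKNK1 on the same strand, was listed at 0 counts, and the treatment of reads shared by 2 genes was not stated.

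Within the kinase pair the share of MKNK1 was lower in the tDR libraries. MKNK1 counts stood to MKNK2 counts as 0.494, 0.485, 0.438 and 0.397 to 1 in the controls and as 0.290, 0.241, 0.345 and 0.287 to 1 with the tDR. No tDR library reached the lowest control ratio. The mean ratio was 0.454 ± 0.0450 in controls and 0.291 ± 0.0425 with the tDR (SD, n = 4), a difference of -0.65 on the log2 scale. A ratio within a library does not depend on how libraries are scaled. It shows unequal change of the pair and not that either gene was constant. Together the MNK genes took 0.968 ± 0.0551 of every 10000 counts in controls and 1.36 ± 0.0571 with the tDR. No p is given for the ratios, since the genes were chosen with the results known.

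**Figure D2:**
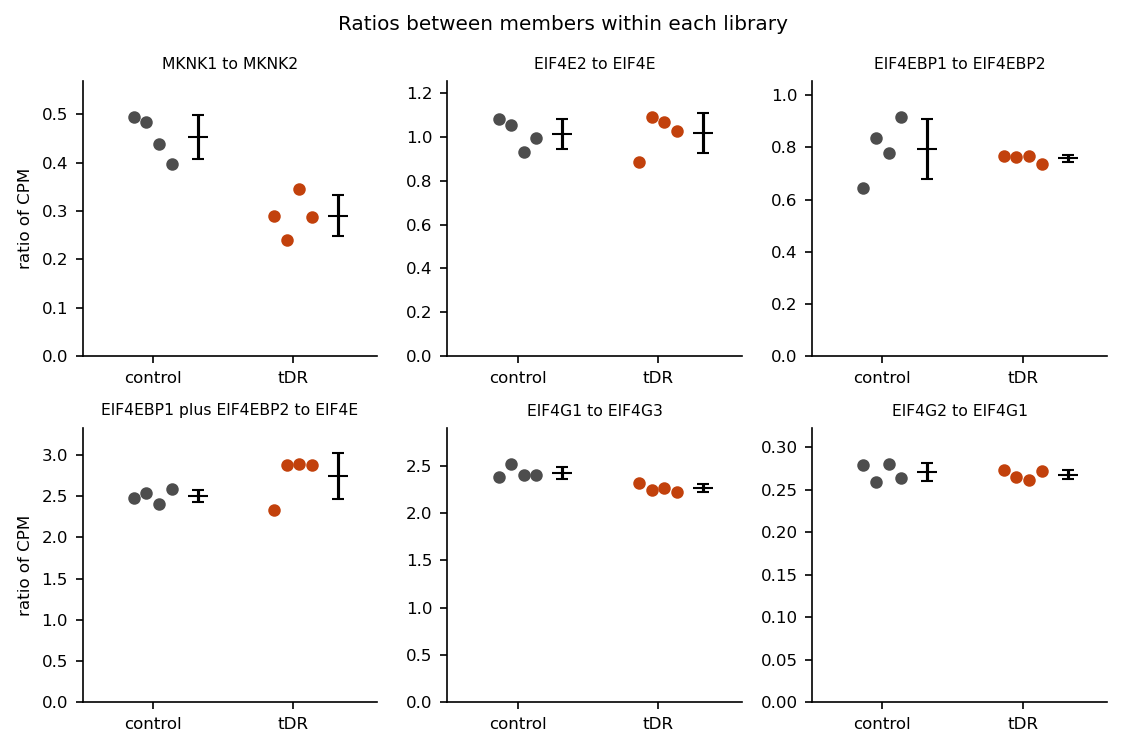
Ratio of CPM between members within each library (linear axes from 0), 1 point per library in replicate order, with group mean and SD. The ratio of MKNK1 to MKNK2 is 0.397 to 0.494 in controls and 0.241 to 0.345 with the tDR, and that of EIF4E2 to EIF4E overlaps between the groups.

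EIF4E (ENSG00000151247.12; chromosome 4, 98871684 to 98930637, minus strand) encodes the cap-binding subunit of eIF4F that MNK phosphorylates. Its level was 96.2, 95.7, 102 and 99.0 CPM in controls and 96.7, 78.3, 81.0 and 83.9 CPM with the tDR. Of the tDR libraries, replicates 2, 3 and 4 lay below every control, while replicate 1 lay among the controls. The log2 fold change was -0.21 ± 0.065 (SE; adjusted p by edgeR = 0.0114). The call was lost without tDR replicate 2 (-0.18, adjusted p = 0.0597), with library size alone (-0.13, adjusted p = 0.133) and with background subtracted (-0.17, adjusted p = 0.0823). In the last of these fits the filter and the TMM factors were computed anew on the subtracted counts. Background made up 0.832% to 1.863% of the EIF4E counts. EIF4G1, with at most 0.033% background, also moved in that fit, from -0.20 to -0.14. The parts of the subtraction and of the new scaling in the lost EIF4E call were not tested.

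EIF4E2 (ENSG00000135930.13; chromosome 2, 232550052 to 232583644, plus strand) encodes the relative of eIF4E often called 4EHP, which binds caps and recruits the repressor GIGYF2. It stood at 104, 101, 95.03 and 98.5 CPM in controls. With the tDR it stood at 85.7, 85.5, 86.7 and 86.3 CPM, all below the lowest control and within a range narrower than that of the controls. The log2 fold change was -0.21 ± 0.061 (SE; adjusted p by edgeR = 0.00727). This call too was lost with library size alone (-0.13, adjusted p = 0.115) and with background subtracted (-0.16, adjusted p = 0.0581). Both cap-binding genes fell by the same amount to the second decimal, and the ratio of EIF4E2 to EIF4E was 1.02 ± 0.0678 in controls and 1.02 ± 0.0923 with the tDR. TIGD1, which overlaps exons of EIF4E2 on the opposite strand and held 15.6% as many counts, had a log2 fold change of -0.28 (edgeR, adjusted p = 0.138); the strand setting of the counting is not given, so reads of the 2 genes may not be fully separated.

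EIF4EBP1 (ENSG00000187840.4; chromosome 8, 38030341 to 38060365, plus strand) encodes 4E-BP1, the repressor of eIF4E best known as a target of mTORC1. It stood at 93.6, 110, 108 and 122 CPM in controls and at 97.7, 97.4, 102 and 102 CPM with the tDR. The controls spread more widely than the tDR libraries, and all tDR libraries lay within their range. The log2 fold change was -0.12 ± 0.064 (SE; adjusted p by edgeR = 0.166), with an approximate 95% interval of -0.25 to 0.00. It passed without control replicate 1, the lowest control (-0.19, adjusted p = 0.0131), and with length and GC correction (-0.22, adjusted p = 0.00374).

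EIF4EBP2 (ENSG00000148730.6; chromosome 10, 70404379 to 70428618, plus strand) encodes 4E-BP2, a second repressor of the same kind. It was measured at 145, 132, 138 and 134 CPM in controls and at 127, 128, 133 and 139 CPM with the tDR, and the groups overlapped. The log2 fold change was -0.06 ± 0.056 (SE; adjusted p by edgeR = 0.484), with an approximate 95% interval of -0.17 to 0.05, and its sign turned with scaling to library size alone (0.03). EIF4EBP1 stood to EIF4EBP2 as 0.794 ± 0.114 in controls and 0.759 ± 0.0139 with the tDR, and the controls, at 0.646 to 0.916, enclosed the tDR libraries. Summed, the 2 binding-protein genes stood to EIF4E as 2.501 ± 0.0779 in controls and 2.74 ± 0.276 with the tDR (SD, n = 4). In tDR replicates 2, 3 and 4 this ratio was 2.87, 2.89 and 2.88, above the highest control at 2.59, but in tDR replicate 1 it was 2.33, below the lowest control at 2.40.

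EIF4G1 (ENSG00000114867.20; chromosome 3, 184314495 to 184335358, plus strand) encodes the main scaffold of eIF4F and had the highest level per length of the members. It stood at 1794, 1834, 1805 and 1834 CPM in controls (SD 20.3 CPM). With the tDR it stood at 1628, 1594, 1595 and 1525 CPM, all below the lowest control. This gave a log2 fold change of -0.20 ± 0.040 (SE; adjusted p by edgeR = 0.000157). It fell under all 16 alternatives of the fit, at log2 fold changes from -0.31 to -0.11.

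EIF4G2 (ENSG00000110321.16; chromosome 11, 10797050 to 10809110, minus strand) encodes DAP5, which promotes initiation without eIF4E. It stood at 502, 476, 507 and 485 CPM in controls and at 445, 423, 417 and 415 CPM with the tDR, with no overlap. The log2 fold change was -0.21 ± 0.045 (SE; adjusted p by edgeR = 0.000274), and it fell under all 16 alternatives, at -0.28 to -0.13. CTR9, which overlaps EIF4G2 exons on the opposite strand and held 45.6% as many counts, had a log2 fold change of -0.09 (edgeR, adjusted p = 0.182).

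EIF4G3 (ENSG00000075151.20; chromosome 1, 20806292 to 21176888, minus strand) encodes a close relative of eIF4GI that also binds eIF4E. It stood at 753, 728, 751 and 765 CPM in controls and at 702, 711, 703 and 685 CPM with the tDR. The groups did not overlap, but the log2 fold change of -0.10 ± 0.042 (SE) did not pass (edgeR, Benjamini-Hochberg adjusted p = 0.0819). It passed under 6 of 16 alternatives, among them DESeq2 (-0.13, adjusted p = 0.000877) and the fit without control replicate 1 (-0.10, adjusted p = 0.0478) or control replicate 2 (-0.12, adjusted p = 0.0296), and with library size alone it was -0.01. EIF4G1 stood to EIF4G3 as 2.43 ± 0.0632 in controls and 2.26 ± 0.0410 with the tDR, with no overlap. The ratio of EIF4G2 to EIF4G1 was 0.271 ± 0.0106 and 0.268 ± 0.00553, with overlap. The scaffold genes together took 29.6 ± 0.148 of every 10000 counts in controls and 27.7 ± 0.416 with the tDR.

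**Figure D3:**
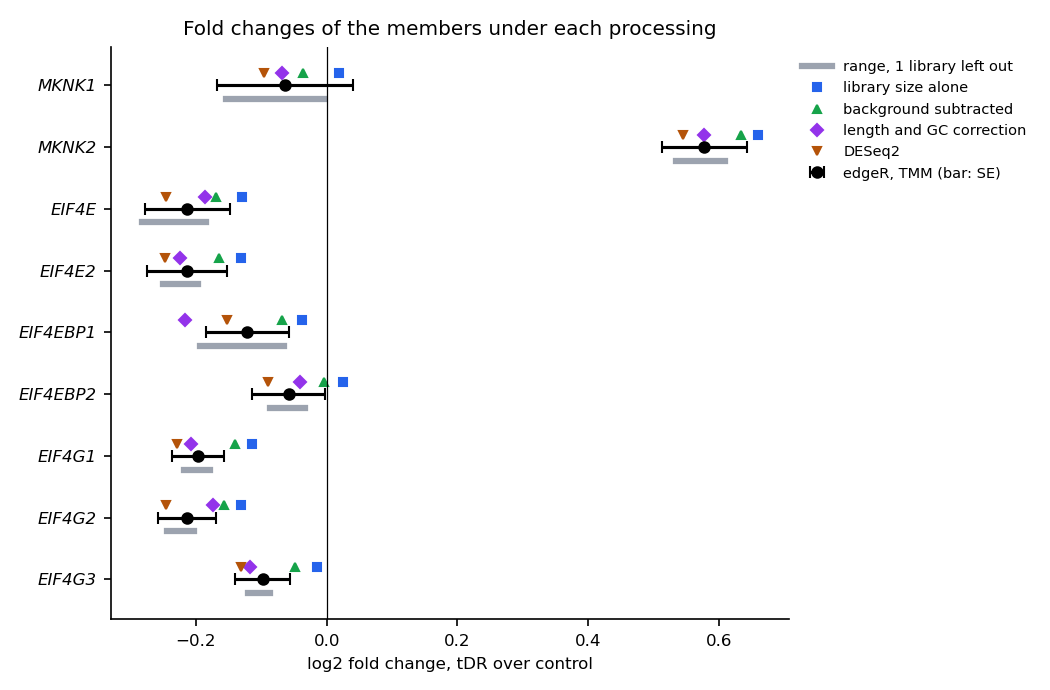
Log2 fold change of each member (tDR over control) with its SE from edgeR with TMM scaling, beside 4 other ways of processing and the range when 1 library is left out. MKNK2 stays above 0.4 in each of these, and EIF4G1 and EIF4G2 stay below 0, while MKNK1 and EIF4EBP2 cross 0 with library size alone.

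Levels of different genes can be set beside each other only per length. Per kb of the union of annotated exons, the control levels were 220 CPM per kb for EIF4G1, 101 for EIF4EBP1, 78.1 for EIF4G3, 56.9 for EIF4G2, 18.9 for EIF4EBP2, 13.9 for EIF4E2, 13.2 for MKNK2, 6.99 for EIF4E and 3.86 for MKNK1. Neighbours in this order did not overlap between control libraries except EIF4E2 and MKNK2, at 13.2 to 14.5 and 12.4 to 14.1 CPM per kb. In the tDR libraries MKNK2 stood at 19.8 ± 1.01 and EIF4E2 at 11.99 ± 0.0795 CPM per kb (SD, n = 4). The order depends on the length taken: per kb of the principal transcript, EIF4G1 was still first, while EIF4G2 ranked 2, EIF4EBP1 ranked 4 and EIF4E was last.

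By a likeness measure over all 8 libraries, the genes closest to MKNK2 were MEIS3, SHISA2, GRIK2, CARD10 and CRACDL. The measure is the root mean square difference between log2 CPM profiles, each centred on its own mean, among 10216 other named genes with a mean of at least 10 CPM. It was 0.0693 for MEIS3 to 0.0835 for CRACDL on the log2 scale, beside a median of 0.343 over all genes compared. MEIS3, a homeobox gene, went from 10.6 ± 0.656 to 16.6 ± 0.984 CPM, and GRIK2, which encodes a glutamate receptor subunit, from 31.9 ± 2.44 to 47.6 ± 2.81 CPM. The genes closest to EIF4E2, the member with the lowest log2 fold change, close to those of EIF4G2 and EIF4E, were WDHD1, CKAP2, KDM5A, SCLT1 and OBI1, at 0.0203 to 0.0288 beside a median of 0.147. WDHD1, a replication protein gene, went from 116 ± 6.18 to 100.1 ± 1.26 CPM. Profiles with such a group difference are alike through it.

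**Figure D4:**
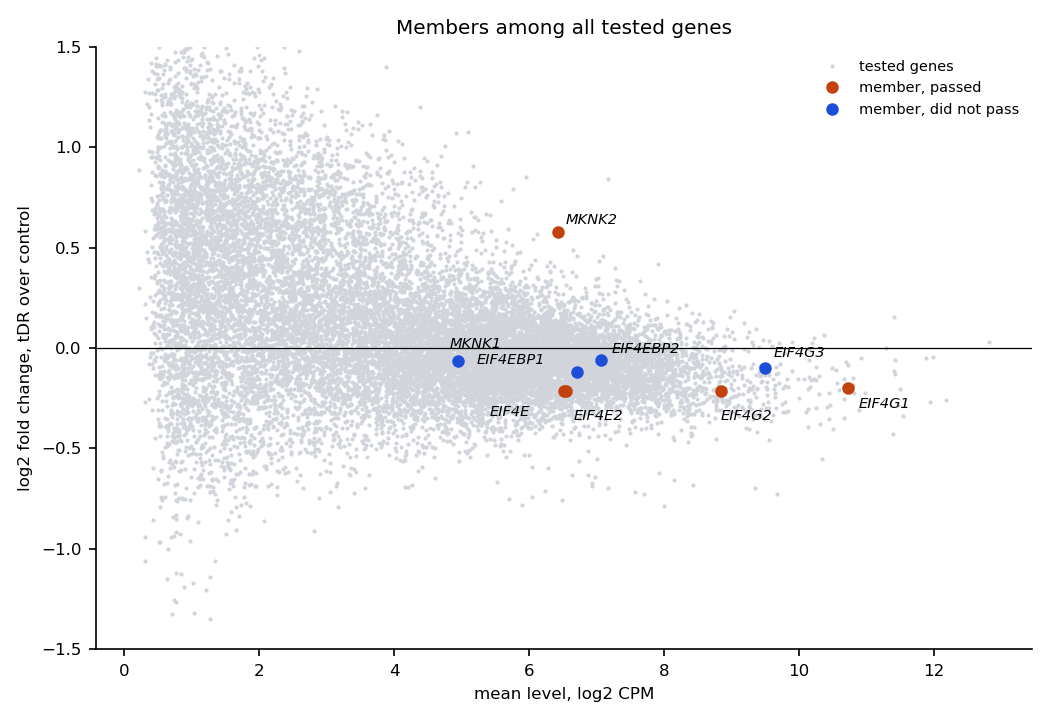
Log2 fold change (tDR over control) against mean level in log2 CPM for all 17184 tested genes, with the members marked; 94 genes lie outside the plotted range of 1.5 either way. MKNK2 stands at 0.58 above the bulk of genes of its level, the other members lie between -0.21 and -0.06, and the points of EIF4E and EIF4E2 coincide.

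Other genes of the pathway were read from 8 lists with 86 genes, of which 77 were tested; 2 rose, 30 fell and 45 did not pass, with a median log2 fold change of -0.11 (over all tested genes 0.02). Over all tested genes 12.8% were called higher and 11.4% lower, and over those at the members' levels 6.29% and 24.3%. Of the 9 not tested, 7 were listed at 0 counts in every library (EIF4A1, EIF3C, EIF4E3, EIF4EBP3, EIF4ENIF1, AKT1S1 and HNRNPA1). EIF4A1 and HNRNPA1 are abundant in most cells, so these zeros set no limit on their level. With library size alone 8 of the 77 were higher and 17 lower, and with background subtracted 1 and 19. Over all tested genes, library size alone gave 3295 higher and 907 lower of 17184. Background subtraction gave 1118 higher and 1096 lower of 15101.

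Of 10 genes upstream of MNK, for the ERK and p38 MAP kinases and the kinases that activate them, 1 rose and 1 fell, beside 24.3% of all tested genes called in either direction. Their median was 0.02 (-0.12 with uncentred length and GC offsets, where that of all tested genes was -0.09). MAP2K6, which encodes an activator of p38, went from 42.9 ± 2.17 to 32.1 ± 2.23 CPM (log2 fold change -0.41; adjusted p by edgeR = 0.00054). MAPK11, the gene of p38 beta, rose from 1.19 ± 0.614 to 2.74 ± 0.823 CPM on 5 to 30 counts per library, and lost its call under 6 of 16 alternatives: DESeq2, background subtraction, and the fits without control replicate 1 or 3 or tDR replicate 3 or 4. MAPK14, the gene of p38 alpha, was at -0.11 (edgeR, adjusted p = 0.12). None of 9 genes for other MAPK-activated kinases passed (edgeR, highest log2 fold change 0.10 in RPS6KA1, lowest -0.09 in RPS6KA6), and their median was 0.02. DESeq2 called 0 of the 9 as well, and 0 had an unadjusted p under 0.05 by edgeR. MAPKAPK2, which encodes a kinase downstream of p38, was at 0.09 and passed with library size alone.

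Of 10 tested genes of the mTORC1 arm, which acts on the 4E-binding proteins, 1 rose and 1 fell, beside 24.3% of all tested genes called in either direction. The counts and the median depended on the processing. With library size alone 3 were higher and 1 lower with a median of 0.08, with uncentred offsets 0 and 3 with a median of -0.06, against -0.01 in the TMM fit. Over all tested genes the medians were 0.10, -0.09 and 0.02 in the same fits. Library size alone called 3295 of 17184 genes higher and 907 lower, and uncentred offsets 1498 and 4152 of 16669. MLST8, a core subunit of mTORC1, went from 109.6 ± 9.67 to 88.6 ± 3.81 CPM (log2 fold change -0.31; adjusted p by edgeR = 0.000223). TSC1, an inhibitor of the pathway, rose from 76.4 ± 0.715 to 85.6 ± 2.52 CPM at an adjusted p of 0.0487 (edgeR) and lost that call under 14 of 16 alternatives, each of the 8 left-out libraries among them (-0.002 with uncentred length and GC offsets). It kept the call with library size alone (adjusted p = 0.00287) and with background subtracted (adjusted p = 0.0169). TSC2 was at 0.11 (edgeR, adjusted p = 0.165).

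Of 12 tested eIF3 subunit genes 11 fell and EIF3F did not pass (-0.12), with a median of -0.22, where 11.4% of all tested genes and 24.3% of those at the members' levels were lower. EIF3A, which encodes the largest subunit, went from 1551 ± 77.0 to 1275 ± 59.6 CPM (log2 fold change -0.28; adjusted p by edgeR = 9.24e-07), and EIF3D, the subunit that can itself bind caps, from 390 ± 6.60 to 321 ± 18.6 CPM. EIF3M was at -0.27. With library size alone 7 of the 12 fell, with a median of -0.14. In that fit 907 of all 17184 tested genes were lower, and the median of all tested genes was 0.10. Of 9 tested genes for the helicase and the poly(A)-binding partners 6 fell, with a median of -0.20, beside the same shares. PABPC1, the main cytoplasmic poly(A)-binding protein gene, went from 674 ± 14.9 to 585 ± 13.2 CPM (log2 fold change -0.20; adjusted p by edgeR = 0.000285), PABPC4 fell by 0.35 and PAIP1 by 0.32 on the log2 scale. Of these 9 genes 3 fell with library size alone and 3 with background subtracted. Over all tested genes 907 of 17184 and 1096 of 15101 were lower in the same fits.

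**Figure D5:**
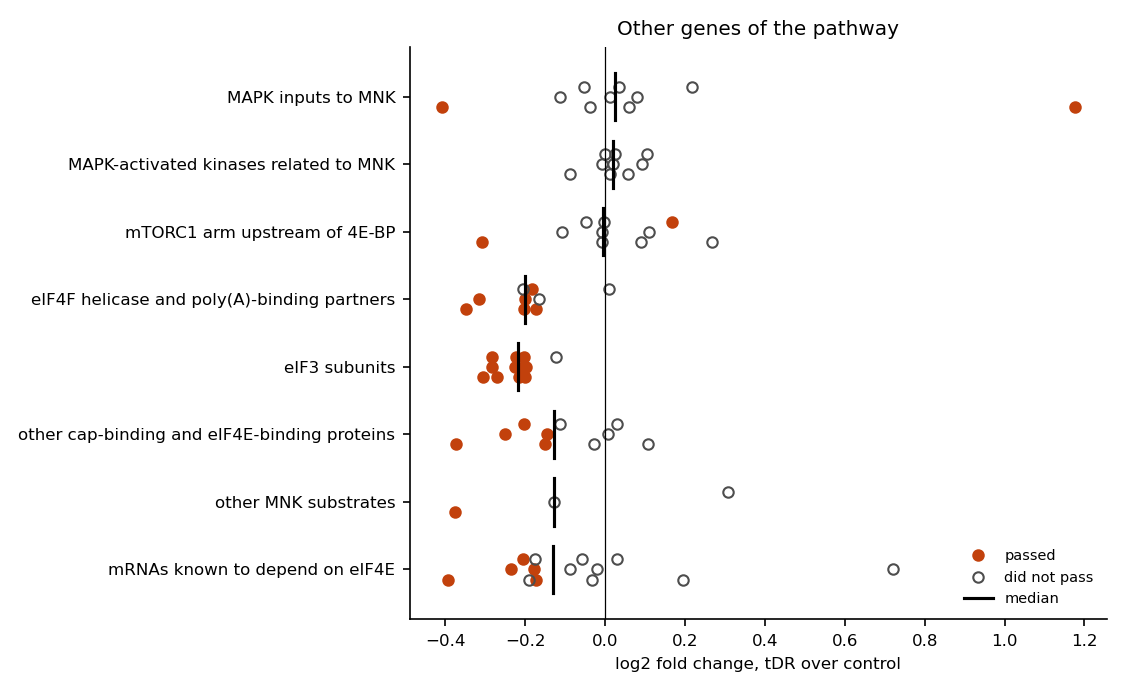
Log2 fold change (tDR over control) of each tested gene in the 8 pathway lists, filled where it passed (edgeR, adjusted p under 0.05), with the list median as a bar; the vertical offset within a list only separates points. The eIF3 list holds 11 filled points below 0, and the list of MAPK-activated kinases holds none.

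Of 10 tested genes for other cap-binding and eIF4E-binding proteins 5 fell, with a median of -0.13, beside 11.4% lower over all tested genes and 24.3% at the members' levels. They were NCBP1 (-0.25) and NCBP2 (-0.37), the pair of subunits of the nuclear cap-binding complex, GIGYF2 (-0.14), the partner of 4EHP, CYFIP1 and ANGEL1. With library size alone or with background subtracted 2 of the 10 fell, GIGYF2 lost its call in both, and with library size alone 1 of the 10 was higher. Over all tested genes 907 of 17184 were lower and 3295 higher with library size alone. With background subtracted 1096 of 15101 were lower. With the replicate block 3 of the 10 fell, beside 1834 of all 17184 tested genes. Of 3 tested genes for other MNK substrates SFPQ, a paraspeckle and splicing protein gene, went from 1435 ± 80.2 to 1106 ± 53.6 CPM (log2 fold change -0.38; adjusted p by edgeR = 1.54e-09). SPRY2, a feedback inhibitor of ERK signalling, was at 0.31 (edgeR, adjusted p = 0.156) and PLA2G4A at -0.13.

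Of 14 tested genes whose mRNAs are known to depend on eIF4E for translation 5 fell and 9 did not pass, with a median of -0.13. Beside them stand the 11.4% of all tested genes and the 24.3% of genes at the members' levels that were lower. MYC went from 56.1 ± 1.35 to 42.7 ± 3.72 CPM (log2 fold change -0.39; adjusted p by edgeR = 0.000223). ODC1, the rate-limiting enzyme gene of polyamine synthesis, was at -0.24 and BIRC5, the survivin gene, at -0.21; RRM2 and NBN fell as well. With library size alone or with background subtracted 2 of the 14 fell, BIRC5 lost its call in both, and with library size alone 1 of the 14 was higher. Over all tested genes 907 of 17184 were lower and 3295 higher with library size alone. With background subtracted 1096 of 15101 were lower. These are RNA levels, and translation was not measured. For MCL1 and CCND1, chosen after their values were seen, the log2 fold changes were 0.03 and -0.06 (edgeR, adjusted p = 0.745 and 0.584).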

How the data were processed

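The values are raw read counts as the authors deposited them, with 1 row per gene and 1 column per library. The submitters' processing notes name featureCounts 2.0.2, STAR 2.7.8a, DESeq2 1.30.1, cutadapt 2.10 and FastQC 0.11.9, and as builds hg38 and GRCh38.p13. Per the labels' protocols, TRIzol RNA went into a stranded total RNA kit of low input (SMARTer Pico). Annotation, strand setting and handling of shared reads were not stated in these sources.

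The test was edgeR 4.0.16's quasi-likelihood F test (R 4.3.3) on the 8 libraries, modelled by group alone, with TMM factors and edgeR's low-count filter; p-values were Benjamini-Hochberg adjusted over 17184 genes and called under 0.05. The test was also run on counts simulated with changes in a small part of the genes. That run held no broad shift between the groups and no difference in background, so it does not bear on these. GENCODE 29 matched 93.99% of genes (99.5% of counts). Alternatives were scaling to library size, RLE factors, DESeq2 1.42.0, no filter, the replicate block, subtraction of an olfactory receptor background, each library left out, and offsets from splines on exon length and GC content (16669 genes), centred on their median per library. The centring was chosen after the data were seen, because offsets as fitted also rescaled the libraries; the uncentred offsets are kept beside it, and the principal transcript length was likewise added. Each pair of libraries differed by more than counting noise (chi-square 2.13 to 7.36 per degree of freedom).

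Members and lists were chosen with earlier results of these data known. The text names all 9 members, up to 3 genes of each list with the smallest p, genes that complete a count, and 5 genes most like MKNK2 and EIF4E2. RefSeq promoter windows were taken for 8 members. Windows on chromosome 8, where EIF4EBP1 lies, were left out when the members' windows were chosen. Stretches of 3 members were printed, and the windows of EIF4E and EIF4E2 lie wholly in annotated exons.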

Additional observations from a re-analysis of the deposited data

Results flagged for a closer look

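Among 33 named genes, 66 groups of 4 libraries were searched for a library far from the other 3 (by Dixon's test), and 7 were found; chance gives about 1 in 20 groups. None was in a member. In MAPK11, tDR replicate 2 was low at 1.51 CPM (others 3.05 to 3.24). In MAPKAPK2, tDR replicate 1 was high at 97.3 CPM (others 84.2 to 86.3). In TSC1, control replicate 2 was high at 77.4 CPM (others 75.9 to 76.1). In PABPC1, control replicate 2 was high at 696 CPM (others 664 to 670). In EIF3M, tDR replicate 3 was low at 124 CPM (others 139 to 142). In NCBP1, control replicate 3 was high at 153 CPM (others 135 to 138), and in ODC1 the same library was low at 180 CPM (others 200.1 to 204).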

How the results depend on the processing

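MKNK2, EIF4G1 and EIF4G2 kept direction and call under all 16 alternatives. The 5 members called became 3 (2 lower) with library size alone and with background subtracted, 7 with length and GC correction and 8 (7 lower) with uncentred offsets; leaving out 1 library gave 4 to 7 (3 to 6 lower). Over all genes, the 2206 higher were 1432 with DESeq2, and with background subtracted 2214 passed (1118 higher, 1096 lower). With library size alone 3295 were higher and 907 lower. Uncentred offsets gave 4152 lower and moved the median of all genes from 0.02 to -0.09. Leaving out 1 library gave 3162 to 4309 called, 1640 to 2200 higher and 1511 to 2109 lower. Of pathway genes, 20 passed with background subtracted (1 higher, 19 lower), and library size alone gave 8 higher and 17 lower. The 2 higher became 0 with DESeq2 and 1 with RLE factors, length and GC correction or no filter, and 0 to 1 with 1 library left out. Signs turned, to values that did not pass, for MKNK1 (0.0191) and EIF4EBP2 (0.0257) with library size alone, for RPS6KA6 (0.0041) with length and GC correction, and for MAPKAPK2 (-0.0008), TSC1 (-0.002) and TSC2 (-0.0532) with uncentred offsets. With 1 library left out, the log2 difference of the ratio of MKNK1 to MKNK2 was -0.73 to -0.56 and that of EIF4G1 to EIF4G3 -0.11 to -0.08. That of EIF4EBP1 to EIF4EBP2 (-0.05) became -0.15 without control replicate 1 and 0.02 without control replicate 4, and that of the 4E-binding proteins to EIF4E (0.13) became 0.20 without tDR replicate 1. The differences near 0 changed sign, at -0.0392 to 0.068 for EIF4E2 to EIF4E and -0.0369 to 0.0007 for EIF4G2 to EIF4G1. Scaling to library size alone differs from the main fit only in leaving out the TMM factors. Those factors were 0.966 to 0.978 in control and 1.016 to 1.039 in tDR libraries. Without them every member had a higher log2 fold change, as in MKNK2 (0.66 instead of 0.58) and EIF4E (-0.13 instead of -0.21). Beyond this, the cause of the shifts in this section was not tested.

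Replicate numbers are shared by the groups, but same-numbered libraries deviated together in no clear way (correlations -0.045, 0.092, -0.03 and -0.008, and only number 2 correlated best with itself). With the replicate block 3874 genes and 5 members passed, and 1 pathway gene was higher. MKNK1, the least counted member, had the largest SE of the members (0.10, against 0.040 in EIF4G1). The part of depth in this was not tested.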
